A study of Homo sapiens with 8 samples.

Results

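miR-31 is a microRNA (miRNA) that was described here through both of its mature strands, listed as hsa-miR-31-5p and hsa-miR-31-3p (miR-31-5p and miR-31-3p below). The 2 members were chosen by name, and they are 2 of the 1818 mature miRNA names with reads in any library, 2 of the 625 names that passed the filter on low counts and 1 of the 174 pairs of strands that could be tested for their 5p to 3p ratio. The libraries came from HCT116, an epithelial line derived from a human colorectal carcinoma. Its cells were rescued with wild-type (WT) DICER or with DICER bearing 1 amino acid substitution, namely R1855L, R821H or R1003Q, and each of the 4 groups has 2 of the 8 libraries. Small RNA was sequenced by AQ-seq, a library method designed to reduce ligation bias, from total RNA. The sources used here do not give how the rescue was made, whether a line was 1 clone, what endogenous DICER the cells kept or whether replicates were separate cultures, so p-values measure only the spread between these libraries.

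DICER cuts a precursor hairpin near its loop and releases a duplex, one strand of which, usually the guide, is loaded into an Argonaute protein while the other, the passenger, is mostly degraded. The share of reads that each strand takes therefore describes what was cut, loaded and kept from one hairpin. miR-31 is raised in many colorectal tumours, and its guide strand, miR-31-5p, represses the Ras regulator RASA1 among other targets.

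The sequences are shown because the comparison of strands rests on one hairpin. In the first, capitals mark the seed, bases 2 to 8, which pair with targets, and in the second, capitals mark the 5p strand within the hairpin (RefSeq, GRCh38.p14, 5′ to 3′).
miR-31-5p: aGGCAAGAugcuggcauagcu
MIR31 hairpin: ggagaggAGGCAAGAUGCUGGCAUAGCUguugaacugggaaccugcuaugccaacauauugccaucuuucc
Of the 2 members, 1 matched the RefSeq table of mature sequences, miR-31-5p. Its 21 bases take positions 8 to 28 of the 71-base hairpin, followed by 43 bases that hold the loop and the 3p arm. No other name among the 2370 human mature names in that table has the seed GGCAAGA. In the minimum free energy fold of the hairpin (-36.8 kcal/mol, RNAfold), 17 of the 21 bases of the 5p strand are paired, and the 4 unpaired ones are bases 1, 7, 11 and 21, counted from the 5′ end of the strand. MIR31 lies on chromosome 9 at 21512115 to 21512185 on the minus strand (GRCh38, GENCODE release 29). It sits in intron 1 of the 4-exon non-coding host gene MIR31HG (chromosome 9, 21455642 to 21559669, minus strand), 47484 bases downstream of the start of the host and outside its exons.

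Library totals ran from 462805 reads (R1855L replicate 2) to 4269231 reads (WT replicate 2). WT replicate 2, R1855L replicate 1 and R821H replicate 1 were deep, with at least 2241881 reads, and the other 5 libraries were shallow, with at most 1143373. Both R1003Q libraries were shallow, and within each depth class R1855L had the lowest total. miR-21-5p took between 28.8% and 45.2% of the reads. The epithelial miRNAs of the miR-200 family summed to between 2611 and 3341 CPM in every library, with all 5 detected, but 2 of the 5 were called lower in R1855L against WT, miR-429 (log2 -1.04, SE 0.21, edgeR adjusted p = 0.0306) and miR-141-3p (-1.39, SE 0.30, adjusted p = 0.0422), where 5.44% of all tested names were. miR-141-3p was also called higher in R821H and in R1003Q than in R1855L (1.44, SE 0.31, and 1.67, SE 0.31, edgeR adjusted p = 0.0472 and 0.0293). In these comparisons 3.52% and 3.68% of all names were called higher. The most abundant of the 5, miR-200b-3p and miR-200a-3p, were not called in any comparison. The part of these epithelial miRNAs in the values of miR-31 was not tested. Of 3 intestinal miRNAs, miR-192-5p and miR-194-5p were present in all 8 libraries and miR-215-5p had 0 to 5 reads, with 0 in 2 libraries. Of 8 blood-cell miRNAs, miR-155-5p had at most 1 read and miR-223-3p at most 9. Others of the 8 were present, with 208 to 1284 reads of miR-142-3p and 78 to 978 of miR-451a. The sum of the 8 was 755 to 1095 CPM in R1855L and 635 to 914 in WT. It was 633 to 666 CPM in R821H and 649 to 673 in R1003Q. The sum of 6 muscle, liver and neuron miRNAs was 629 to 1194 CPM in R1855L and 714 to 844 in WT. In R821H and R1003Q it was 759 to 913 and 749 to 835. Of these 6, miR-1-3p was at 0 in 5 libraries and miR-206 in 6. However, miR-9-5p had 246 to 3329 reads and miR-122-5p 39 to 259. The sum of 4 fibroblast miRNAs was 642 to 964 CPM in R1855L and 653 to 758 in WT. In R821H and R1003Q it was 634 to 665 and 650 to 734. Of these 4, miR-145-5p had 412 to 2577 reads. All libraries came from the HCT116 line, and the relation of these miRNAs to the values of miR-31 was not tested.

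miR-31-5p, the guide strand, was among the 3 most abundant miRNAs of every library. It was at place 3 in 7 libraries and at place 2 in R1855L replicate 1. In WT it followed miR-21-5p (334737 ± 121454 CPM, SD, n = 2; CPM are counts scaled to a common library total, after TMM scaling except in the sums of marker miRNAs above), an oncogenic miRNA of many carcinomas, and miR-222-3p (79312 ± 3637 CPM), which targets the p27 inhibitor of the cell cycle. At 45906 ± 49.6 CPM it lay above miR-221-3p (33482 ± 3469 CPM), miR-27a-3p (17194 ± 3434 CPM) and miR-16-5p (14891 ± 6826 CPM), and its 2 WT libraries lay above both libraries of each of these 3 and below both of miR-21-5p and miR-222-3p. The raw counts behind these levels ran from 19199 to 176625 reads, so counting error was small: the share of all reads was 4.15% in the shallowest library (exact Clopper-Pearson 95% interval 4.09 to 4.21) and 4.14% in the deepest (4.12 to 4.16). The share still ran from 3.77% in R821H replicate 1 to 5.31% in WT replicate 1. The close levels of the 2 WT libraries therefore hold after TMM scaling, with factors of 1.16 (replicate 1) and 0.902 (replicate 2). No molecular identifiers are described for these reads, and the intervals cover counting error only.

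After TMM scaling, the level of miR-31-5p spanned a narrow range. It was 45871 and 45941 CPM in WT (replicates 1 and 2). In R1855L it was 45915 and 35326 CPM. In R821H it was 42928 and 40857 CPM, and in R1003Q 54025 and 42835 CPM. The highest library, R1003Q replicate 1, was 1.53 times the lowest, R1855L replicate 2, and the R1855L and R1003Q groups each overlapped or straddled the level of WT, while both R821H libraries lay below both of WT, as they did for 13.1% of all tested names.

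**Figure D1:**
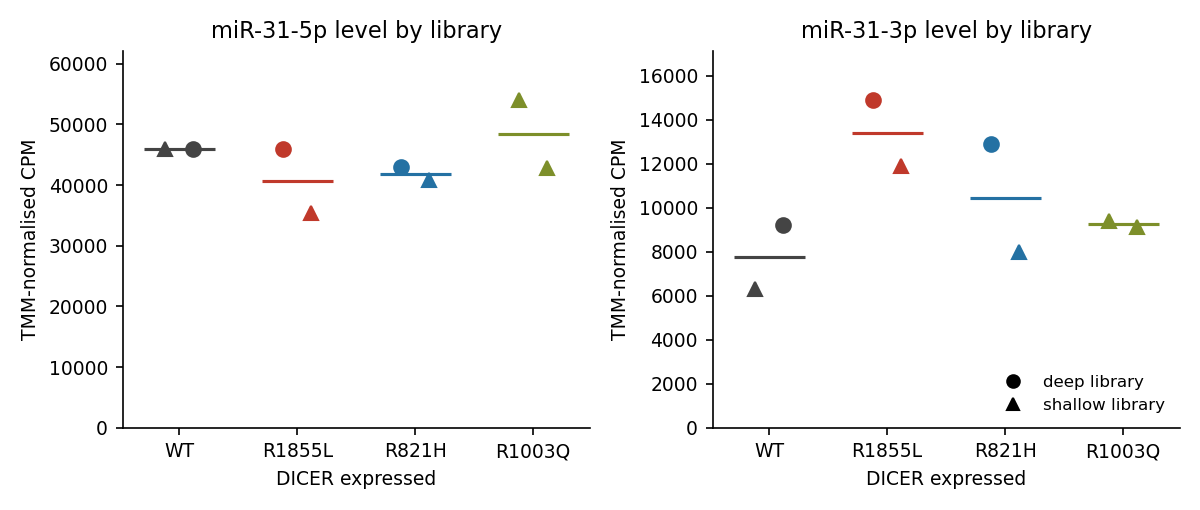
Levels of miR-31-5p (left) and miR-31-3p (right) in TMM-normalised CPM, 1 point per library (circles deep, triangles shallow), with a line at each group mean. The 5p strand lies between 35326 and 54025 CPM in all 8 libraries, and both R1855L libraries lie above both WT libraries for the 3p strand.

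No comparison of miR-31-5p passed the test (edgeR, Benjamini-Hochberg adjusted over 625 names). R1855L against WT gave a log2 fold change of -0.18 (SE 0.26, 95% interval -0.77 to 0.42, adjusted p = 0.757), where 36 of 625 names, 5.76%, were called. R821H against WT gave -0.13 (SE 0.26, interval -0.73 to 0.47) and R1003Q against WT 0.08 (SE 0.26, interval -0.52 to 0.67). In these 2 comparisons edgeR called 0 of 625 names (0%), with an unadjusted p under 0.05 for 20 and 31, and calls by DESeq2 numbered 1 and 0. Between the mutants the log2 differences of miR-31-5p were 0.04 (R821H against R1855L), 0.25 (R1003Q against R1855L) and 0.21 (R1003Q against R821H), none called, against 3.84%, 3.68% and 0% of all names. In the last of these edgeR called 0 names with an unadjusted p under 0.05 for 10, and calls by DESeq2 numbered 0. As folds, the interval for R1855L against WT ran from 0.585 to 1.34 times the WT level, and that for R1003Q from 0.697 to 1.60 times.

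miR-31-3p, the passenger strand, was itself abundant. Its mean level in WT, 7755 ± 2077 CPM, was the second highest among the less abundant strands of the pairs whose strands were both tested, after miR-222-5p. The next strand in that order, miR-221-5p at 6519 ± 4049 CPM, did not differ from it beyond the spread. miR-31-3p stood at place 23 of all names by the WT mean. Its neighbours there did not differ from it beyond their spread: let-7i-5p, a tumour suppressor of the let-7 family, was at 7862 ± 5284 CPM and miR-27b-3p at 7147 ± 158 CPM. Raw counts of miR-31-3p ran from 6410 to 37812 reads.

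The level of miR-31-3p was 6286 and 9224 CPM in WT. It was 14895 and 11877 CPM in R1855L, so both R1855L libraries lay above both WT libraries. In R821H it was 12896 and 7992 CPM, which overlapped WT, and in R1003Q 9390 and 9113 CPM, of which replicate 2 lay below the higher WT library. The strand stood at places 9 and 13 in the 2 R1855L libraries, at places 12 and 17 in R821H, at places 13 and 15 in R1003Q and at places 23 and 17 in WT. The share of all reads gave the same order of groups, with 1.35% and 1.39% in R1855L against 0.727% and 0.831% in WT.

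With group alone in the model, miR-31-3p did not pass the test in R1855L. The log2 fold change was 0.79 (SE 0.33, 95% interval 0.02 to 1.55, edgeR unadjusted p = 0.0445, adjusted p = 0.270), a fitted 1.73-fold higher level. Without R1855L replicate 1 it was 0.52. Levels in R1855L lay above WT without overlap for 132 of 625 names, 21.1%, so the separation of the groups was common in this comparison. R821H against WT gave 0.43 (SE 0.33, interval -0.33 to 1.19) and R1003Q against WT 0.25 (SE 0.33, interval -0.50 to 1.01), neither called. These 3 comparisons share the WT libraries. Between the mutants the log2 difference of miR-31-3p was -0.36 in R821H against R1855L, -0.53 in R1003Q against R1855L and -0.18 in R1003Q against R821H, and none was called.

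**Figure D2:**
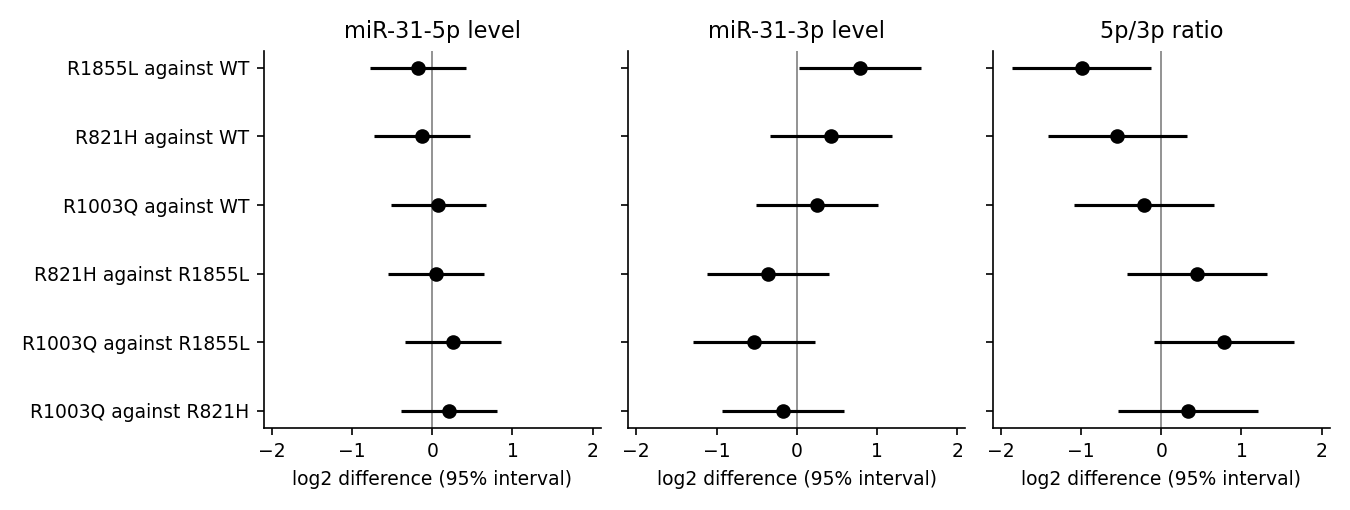
Fitted log2 differences (points) with 95% intervals (lines) of the miR-31-5p level, the miR-31-3p level and the 5p to 3p ratio in the 6 comparisons of groups. The intervals that leave out 0 are those of the 3p level and of the ratio in R1855L against WT, and neither passed adjustment over all names or pairs.

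The share of the 3p strand among miR-31 reads was highest in the R1855L libraries, a difference from WT that did not pass the test of the ratio with group alone in the model (limma adjusted p = 0.193). The 3p strand took 12.1% and 16.7% of the miR-31 reads in WT. It took 24.5% (exact Clopper-Pearson 95% interval 24.3 to 24.7) and 25.2% (24.6 to 25.7) in R1855L. It took 23.1% and 16.4% in R821H, and 14.8% and 17.5% in R1003Q. Both R1855L libraries lay above all 6 other libraries, R821H replicate 1 came next, and R1003Q overlapped WT. In reads, 7.30 and 4.98 of the 5p strand were counted for each of the 3p strand in WT, against 3.08 and 2.97 in R1855L.

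**Figure D3:**
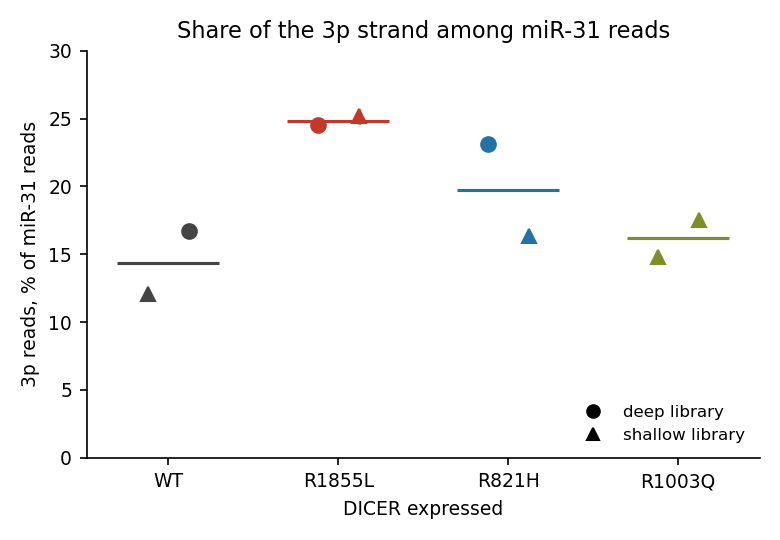
Share of 3p reads among all miR-31 reads in each library, in percent, with exact 95% intervals that are mostly smaller than the points (circles deep, triangles shallow) and lines at the group means. The R1855L libraries, at 24.5% and 25.2%, lie above the other 6, and the 2 libraries of WT and of R821H lie further apart than those of R1855L.

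The log2 ratio of 5p to 3p reads, which library scaling cannot move, was 2.59 ± 0.39 (SD, n = 2) in WT, 1.60 ± 0.04 in R1855L, 2.04 ± 0.44 in R821H and 2.38 ± 0.21 in R1003Q. In R1855L its difference from WT was -0.99 (SE 0.38, 95% interval -1.86 to -0.13), a fitted ratio of 0.502 times that of WT, with a limma unadjusted p = 0.0293 and the adjusted p given above, over 174 pairs. In that comparison 13 of 174 ratios, 7.47%, were called, 3 of them toward 3p (1.72%). Ratios lay below WT in both R1855L libraries without overlap for 19 of 174 pairs, 10.9%, and below all 6 other libraries for 9 pairs, 5.17%, one of which was miR-31. The 2 replicate values of the miR-31 ratio differed by 0.05 in R1855L, 0.29 in R1003Q, 0.55 in WT and 0.62 in R821H.

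The log2 ratio differed from WT by -0.55 in R821H (SE 0.38, interval -1.42 to 0.32) and by -0.21 in R1003Q (SE 0.38, interval -1.08 to 0.65). Neither passed the test, and limma called 0 of 174 ratios (0%) in both, with 3 and 8 at an unadjusted p under 0.05. Between mutants, R1003Q lay 0.78 above R1855L (SE 0.38, interval -0.09 to 1.65, limma adjusted p = 0.367), R821H 0.45 above R1855L and R1003Q 0.33 above R821H, and none was called. Ratios were called in 7.47%, 6.32% and 0% of pairs in these 3 comparisons, and in R1003Q against R821H, where limma called 0, an unadjusted p under 0.05 was reached by 2 pairs.

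Most pairs had the opposite direction from miR-31 in R1855L. The median change of the 5p to 3p ratio over the 174 pairs was 0.23 in R1855L, 0.11 in R821H and 0.06 in R1003Q, all toward 5p. The miR-31 ratio was the eighth from the 3p end of the order in R1855L, with 7 pairs further toward 3p, and had 17 pairs further toward 3p in R821H and 45 in R1003Q. Of the 7 pairs beyond it in R1855L, those of miR-185 (-2.89, SE 0.38), miR-139 (-1.82, SE 0.37) and miR-99b (-1.56, SE 0.35), singled out after their values were seen, passed the limma test.

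**Figure D4:**
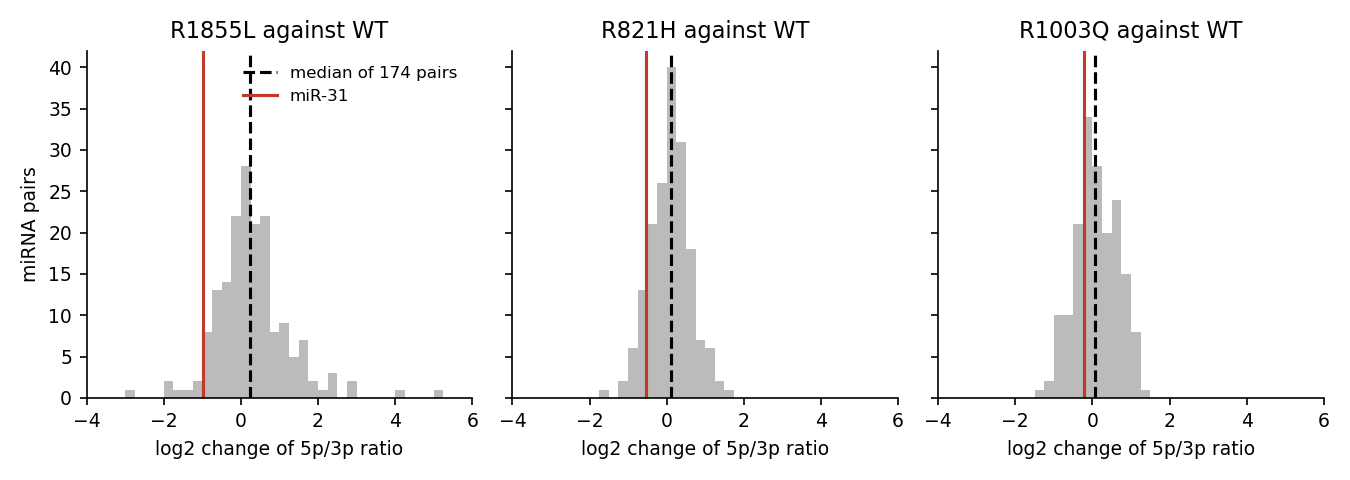
Distribution of the log2 change of the 5p to 3p ratio over 174 miRNA pairs in each mutant against WT (bars, number of pairs), with the median (dashed) and miR-31 (solid). The miR-31 line lies at -0.99 in R1855L, -0.55 in R821H and -0.21 in R1003Q, below the median in each panel.

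The sum of the strands overlapped between WT and each mutant. Together they made 53660 ± 2127 CPM in WT, 54007 ± 9621 CPM in R1855L, 52337 ± 4932 CPM in R821H and 57682 ± 8108 CPM in R1003Q (SD, n = 2), and this sum was not tested. In R1855L the 5p mean was below WT by less than the spread of the R1855L libraries, and the 3p mean was above it by more than the SD of either group.

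The TMM-scaled level of the 3p strand also differed with library depth. In a model with depth class as a term, miR-31-3p was higher in the deep libraries by 0.52 log2 units (SE 0.13, edgeR adjusted p = 0.00268). TMM factors also went with depth, from 0.879 to 0.908 in the deep libraries and from 0.980 to 1.18 in the shallow. By share of all reads, the deep and shallow libraries had 0.831% and 0.727% in WT and 1.13% and 0.797% in R821H. In R1855L the shares were 1.35% (deep) and 1.39% (shallow). The part of the scaling in the depth difference was not tested. A depth difference in either direction was called for 36.5% of all names and 24.7% of ratios, whereas the 0.15 of miR-31-5p (SE 0.13) and the -0.37 of the ratio (SE 0.25) were not called. With this term miR-31-3p was called higher in R1855L (log2 0.81, SE 0.16, edgeR adjusted p = 0.000386) and the ratio lower (-0.99, SE 0.30, limma adjusted p = 0.00670). The same model called 28.3% of all names and 18.4% of all ratios in R1855L, and in it miR-31-5p was not called (-0.19, SE 0.16). Its tests drew more on the spread shared over all names or pairs than those with group alone did. Since R1855L had the lowest total in each class, the term leaves a depth difference between R1855L and WT. For R821H and R1003Q it gave 3p differences of 0.42 (SE 0.16) and 0.54 (SE 0.18), with adjusted p = 0.207 and 0.162, where 2.56% and 0.32% of names were called.

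Within depth classes the 3p level and the ratio kept their direction in R1855L, as they must where groups do not overlap. The log2 difference of miR-31-3p from WT was 0.69 between the deep libraries and 0.92 between the shallow ones, and that of the 5p to 3p ratio was -0.69 and -1.29. For miR-31-5p the deep pair gave -0.0008 and the shallow pair -0.38. In R821H the log2 ratio differed from WT by -0.58 in the deep pair of libraries and by -0.51 in the shallow pair. R1003Q had no deep library, and its ratios differed from that of the shallow WT library by -0.34 and -0.63.

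**Figure D5:**
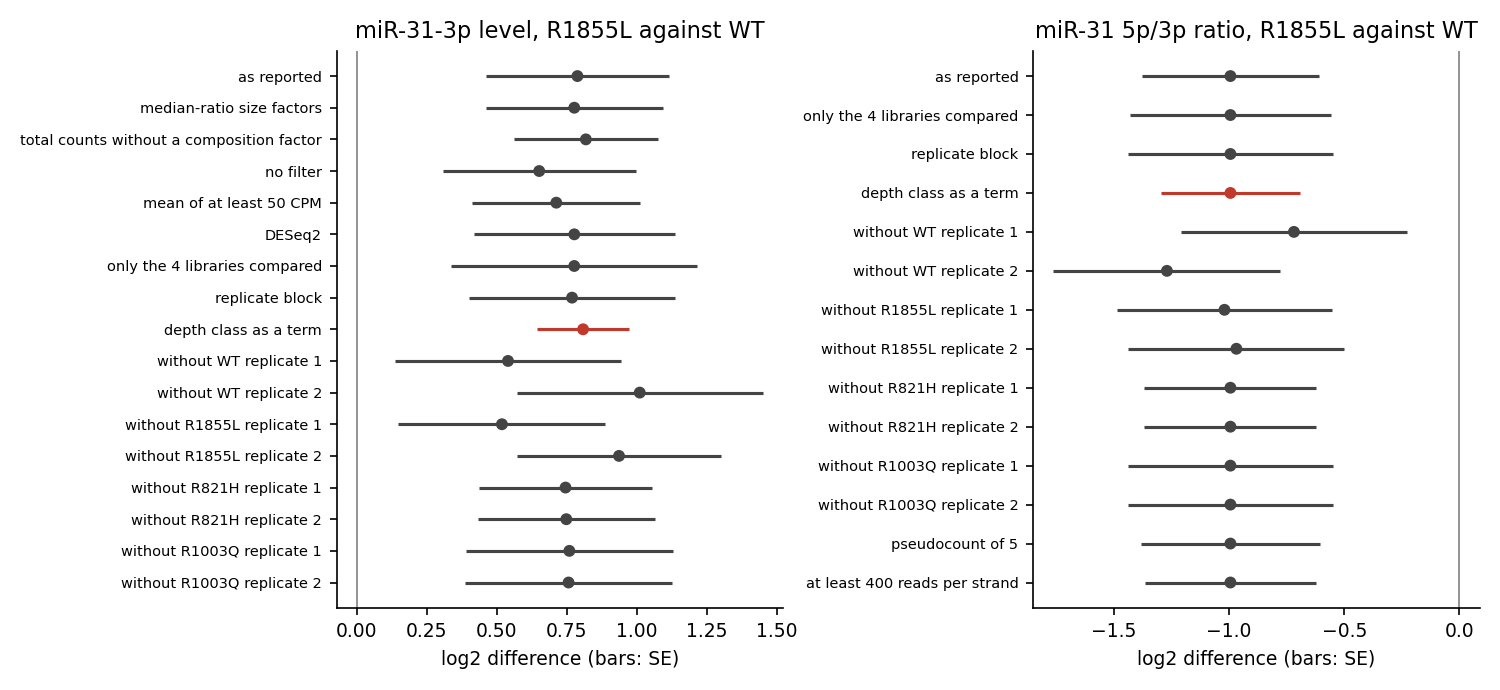
Log2 difference between R1855L and WT in the miR-31-3p level (left) and the 5p to 3p ratio (right) under each way of processing, with SE as bars; red marks an adjusted p under 0.05. Every value of the 3p level lies above 0 and every value of the ratio below 0. The model with depth class as a term is the one that passed. The sign of the ratio was hardly put to the test. The depth term, the replicate block and leaving out an R821H or R1003Q library cannot move it from -0.99 in this balanced design. Leaving out a WT or R1855L library cannot turn the sign of the ratio, since those groups do not overlap.

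The strands of miR-31 did not vary together over the 8 libraries. Pearson's r of their log2 CPM was -0.19, a description over libraries that share depth classes and groups. Of 338 names with a mean of at least 50 CPM, miR-194-5p, an intestinal epithelial miRNA, was most like miR-31-5p (r = 0.84). It was followed by miR-652-3p (0.68), miR-652-5p (0.67), miR-1287-5p (0.65) and miR-34a-5p (0.64), the last induced by p53. Most like miR-31-3p were miR-28-5p (0.94), miR-548b-5p (0.92), miR-30d-5p (0.92), miR-29a-5p (0.92) and miR-181a-3p (0.88).

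miR-31-5p was set beside other miRNAs linked to colorectal cancer. Of 12 listed as raised in such tumours, 11 were tested, and in R1855L 1 was called lower and 10 were not called, with a median log2 fold change of 0.16 beside 0.13 over all 625 names, of which 5.44% were called lower. The one called was miR-203a-3p, a keratinocyte differentiation miRNA (-1.60, SE 0.22, edgeR adjusted p = 0.00830). miR-203a-3p was also higher in R821H and in R1003Q than in R1855L (1.64, SE 0.22, and 1.51, SE 0.22, edgeR adjusted p = 0.00808 and 0.0112), the one member called in each, where 3.52% and 3.68% of all names were called higher. The most abundant of the list were miR-21-5p (0.16, SE 0.41), miR-92a-3p of the miR-17-92 cluster (0.61, SE 0.28) and miR-183-5p (1.01, SE 0.45). The list had medians of 0.24 in R821H and -0.02 in R1003Q against WT, beside 0.04 and 0.06 over all names, with 0 called.

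As lowered in colorectal tumours 12 names were listed, with miR-137 given both with and without a strand suffix. Of these names, 9 were tested and 0 were called by edgeR in any of the 6 comparisons. The shares called over all names were 5.76%, 0% and 0% in R1855L, R821H and R1003Q against WT and 3.84%, 3.68% and 0% between the mutants, so a count of 0 among 9 names is near the background. Their median log2 fold change was 0.04 in R1855L, 0.04 in R821H and -0.02 in R1003Q against WT, beside 0.13, 0.04 and 0.06 over all names. The most abundant were miR-34a-5p (4154 ± 870 CPM in WT), miR-378a-3p (2373 ± 95.4 CPM) and miR-9-5p (694 ± 243 CPM), all below the 7755 CPM of the miR-31 passenger strand. In R1855L their log2 fold changes were -0.56 (SE 0.33), -0.60 (SE 0.22) and 0.24 (SE 0.47).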

How the data were processed

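The deposited tables, 1 per library, hold estimated counts of reads per mature miRNA, neither normalised nor pooled. Builds hg38 and mm10 and the tools bedtools, BWA and cutadapt are listed in the submitters' processing notes; the sources used here give neither their roles nor the miRNA annotation. A name that a library does not list was taken as 0. Counts were rounded and fitted in edgeR 4.0.16 (R 4.3.3): filterByExpr, TMM, 1 robust quasi-likelihood model over all 8 libraries, with calls at a Benjamini-Hochberg adjusted p under 0.05. SE is the absolute log2 fold change over the square root of F. Strand ratios, log2 of 5p over 3p reads with 0.5 added to each, were fitted in limma 3.58.1 (trend, robust) for pairs with at least 80 reads per strand. Deep and shallow libraries were split at the widest gap between log totals. DESeq2 1.42.0 was an alternative, with the others named in the closing section. The hairpin was folded with ViennaRNA 2.7.2. Figures used matplotlib 3.10.9. Both fits were tested on simulated data. Named miRNAs are both strands, neighbours in the WT order, the 5 names most like each strand and, per colorectal list, called and the 3 most abundant members; cell type markers and the 3 called ratios beyond miR-31 were named after their values were seen. The members and lists were chosen with earlier results of these data known.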

Additional observations from a re-analysis of the deposited data

How the results depend on the processing

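The 18 results on miR-31 (both levels and the ratio, in 6 comparisons) had 270 alternatives in all. Of these, 258 kept direction and side of the threshold, but many could not move a ratio. The 2 that newly passed were in R1855L against WT with depth class as a term, 0.81 for miR-31-3p and -0.99 for the ratio. That model has a smaller residual spread (SE 0.16 in place of 0.33 for miR-31-3p). Its tests also draw more on the spread shared over all names or pairs, so these calls rest less on the spread of miR-31 itself. The other 10 turned direction, all in differences that were not called, and the cause was not tested. They were miR-31-5p in R1003Q against WT (-0.0741 without a filter), miR-31-5p in R821H against R1855L (-0.0842 by total counts) and miR-31-3p in R1003Q against R821H (0.13 with the depth term), and 7 with 1 library left out. With 1 library left out, miR-31-5p ran from -0.14 to 0.19 in R1003Q against WT and from -0.16 to 0.29 in R821H against R1855L. miR-31-3p ran from -0.0326 to 0.71 in R821H against WT and from -0.50 to 0.24 in R1003Q against R821H, and the ratio from -0.49 to 0.0621 in R1003Q against WT. In R1855L against WT it ran from 0.52 to 1.01 for miR-31-3p, from -1.27 to -0.72 for the ratio and from -0.49 to -0.0159 for miR-31-5p (without R1855L replicate 1 and 2). The ratio in R821H against WT ran from -0.86 to -0.24 and miR-31-3p in R1003Q against WT from 0.00278 to 0.46. The other differences, not called either, kept their sign. A lone library left in a group is assumed to vary like the others.

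Deviations of same-numbered libraries correlated between -0.69 and 0.56, so the numbers were not taken to pair them. With the replicate number as a block, miR-31-3p in R1855L had 0.77 (edgeR adjusted p = 0.397) and the ratio -0.99 (limma adjusted p = 0.312), and no miR-31 call changed. Counts of called names in R1855L were 19 with the block, 2 with only the 4 libraries compared, 14 by total counts, 52 by DESeq2 and 177 with the depth term, beside 36, and counts of ratios ran from 4 to 32 beside 13. Against R1855L, calls ran from 6 to 114 beside 24 (R821H) and from 2 to 93 beside 23 (R1003Q), and ratios from 3 to 39 beside 11 and from 2 to 28 beside 13. R821H and R1003Q against WT had 0 to 16 and 0 to 2 called names. Total counts in place of TMM shift the scale between groups, by the mean log2 TMM factors, by -0.13 in R821H against WT, -0.14 in R821H against R1855L and 0.11 in R1003Q against R821H. A count of 0 allows 3 reads, or 6.48 CPM of total counts, without TMM scaling, in the shallowest library. That is far under either strand. Counting error is small here beside the spread between the 2 libraries of a group.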
